A study of Homo sapiens with 8 samples.

Results

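The genes described here encode enzymes that crosslink the extracellular matrix and adhesive glycoproteins that sit in it. They are the 5 lysyl oxidase genes LOX, LOXL1, LOXL2, LOXL3 and LOXL4, and the 5 genes SPARC, FN1, TNC, THBS1 and POSTN. They were chosen by name, 10 genes of 19970 protein-coding genes on the chromosomes used. Each was examined over its RefSeq record with 5000 bases on either side. H3K4me1, monomethylation of lysine 4 on histone H3, was mapped by ChIP-seq (sequencing of immunoprecipitated chromatin) in MDA-MB-231, a long-established human cell line from a triple-negative breast tumour. Control cells were compared with ARID1A knockout cells, and ARID1A encodes a subunit of SWI/SNF, which remodels chromatin. The 8 samples were 2 immunoprecipitates and 2 inputs of each genotype. The sources used here do not say how the knockout was made or whether it is 1 clone.

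Lysyl oxidases are copper-dependent enzymes that oxidise lysine side chains of collagen and elastin, after which the chains join covalently and the matrix stiffens. SPARC, tenascin-C, thrombospondin-1 and periostin are matricellular proteins, which modulate how cells touch the matrix, while fibronectin forms fibrils to which cells attach. In breast tumours these proteins come from stromal fibroblasts and, in mesenchymal tumour cells, from the cancer cells themselves. H3K4me1 marks enhancers and the borders of active promoters, and it is often low at the start site itself, where the trimethylated form is found. H3K4me1 does not measure transcription.

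The deposited data were 1 peak list per genotype, with 83000 control and 73603 knockout peaks. No spread between replicates exists for a list, so every difference below describes these 2 lists and was not tested. Depth per sample was not used here and is unknown. The lists also differed in form: the shortest peak was 312 bases in control and 361 in knockout, the smallest gap between peaks 1249 and 1445 bases, and the median width 1386 and 1587 bases. As a check of the label, 6 of 6 mesenchymal breast line genes (VIM and CD44 among them) carried peaks in both lists, as did 7 of 8 luminal genes, 5 of 6 fibroblast and endothelial genes and 15490 of all 19970 genes. The median covered share of the window was 35.7% for the mesenchymal, 22.5% for the luminal and 11.3% for the fibroblast and endothelial genes in control, and 34.9%, 20.8% and 10.1% in knockout. Single genes overlapped between these groups. In control, luminal KRT18 had 61.4% and KRT8 41.8%, while mesenchymal ZEB1 had 21.4% and AXL 21.0%. PECAM1, of the fibroblast and endothelial genes, had 24.6% in control and 51.2% in knockout.

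H3K4me1 covered most of these genes more densely than a typical gene, and LOXL1, LOXL2, LOXL3 and SPARC were less covered in the knockout list. The share of the window covered by peaks exceeded the median of all protein-coding genes (9.38% in control, 8.73% in knockout) at 9 of the 10 genes in each list. By that share the control order was LOXL1 (58.8%), SPARC (50.2%), LOXL2 (45.1%), LOXL3 (39.96%), LOXL4 (30.2%), THBS1 (20.1%), TNC (15.5%), LOX (13.3%), FN1 (10.9%) and POSTN (0%). In the knockout list the order was SPARC (37.1%), LOXL1 (34.2%), LOXL2 (32.2%), LOXL4 (27.5%), THBS1 (22.1%), LOX (22.1%), LOXL3 (20.5%), TNC (15.8%), FN1 (12.9%) and POSTN (0%). The highest 3 genes were the same in both lists. Whether neighbours in these orders differ beyond error cannot be said from 1 list each. Coverage above that of a typical gene was not particular to these genes. The median share was 17.4% in control and 13.8% in knockout over 28 other collagen crosslinking and processing genes. It was 6.52% and 9.52% over 31 other matricellular genes, and 8.28% and 9.21% over 15 elastic fibre genes.

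**Figure D1:**
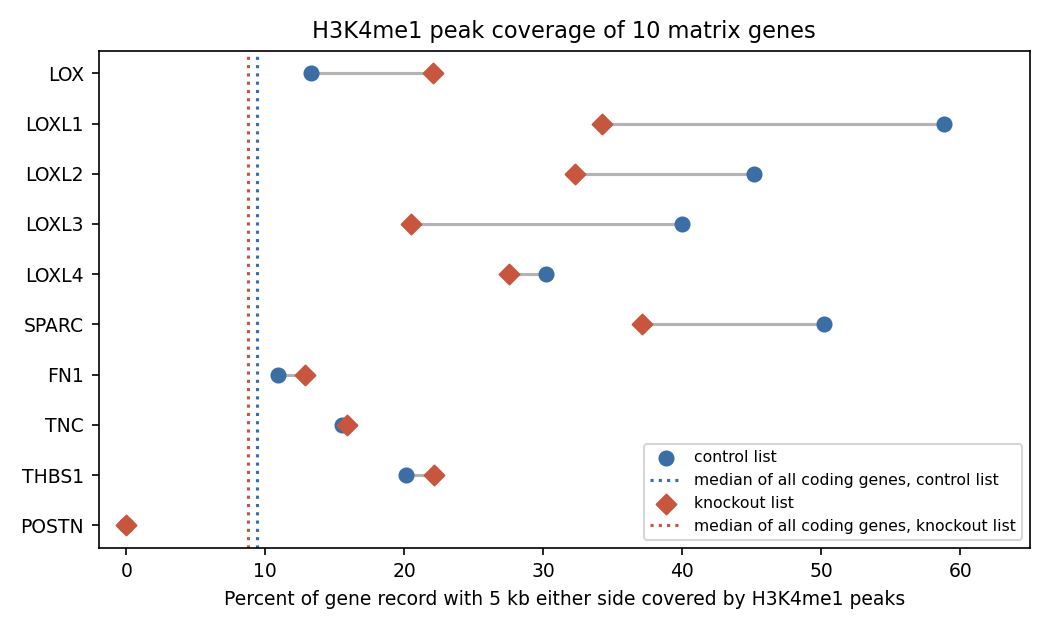
Percent of each gene window (record with 5000 bases either side) covered by H3K4me1 peaks in the control list (circles) and the knockout list (diamonds), with dotted lines at the median of all protein-coding genes. LOXL1, LOXL2, LOXL3 and SPARC lie well to the left in the knockout list, LOX to the right, and POSTN at 0 in both.

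A difference of at least 1000 covered bases was required for a call. By that rule 4 of the 10 genes were lower in the knockout list (LOXL1, LOXL2, LOXL3 and SPARC), where 30.0% of all protein-coding genes were. Higher in the knockout list were 2 of the 10 (LOX and FN1), where 20.2% of all genes were. LOXL4, TNC, THBS1 and POSTN differed by less. At this setting the counts lie near the background of all genes, so the list as a whole does not stand apart in direction there. The median difference was -403.5 bases over the 10 genes and 0 over all genes. When only peaks reaching a −log10 q of 5 were kept, the background turned to 26.7% higher and 17.7% lower, and the same 4 genes were then lower. At that cutoff FN1, TNC and THBS1 were higher, and LOX had no peak in either list. At a fold of at least 4, 5 of the 10 genes were lower and 1 higher, against 19.4% and 14.5% of all genes. With a difference of 2000 bases required, 4 were lower and 1 higher, against 18.7% and 11.0%. These backgrounds were not matched for coverage. Of all 19970 genes 3160 had no peak in either list and so could not be called here, against 1 of the 10. The median covered share in control was 25.2% over the 10 genes and 9.38% over all genes.

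The 5 lysyl oxidase genes together had 99819 covered bases in control against 70807 in knockout. The other 5 genes had 49833 and 47744. Within the enzyme family LOX, the founding member, went the opposite way from the LOX-like genes, of which LOXL4 differed by the least. The control list held all but a small part of what the knockout list covered at LOXL1, LOXL2, LOXL3 and LOXL4, with 285, 1187, 336 and 0 bases found in the knockout list alone. Bases found in the control list alone numbered 9052, 16312, 6846 and 807 at these genes. At LOX the balance was opposite, with 907 control-only and 3104 knockout-only bases.

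LOX encodes the lysyl oxidase that crosslinks fibrillar collagen and elastin (chromosome 5, 122063195 to 122078259). Its window carried 3 control peaks covering 3336 bases and 4 knockout peaks covering 5533 bases. All were of modest strength, with a highest −log10 q of 4.69 in control and 4.87 in knockout, and no LOX peak of either list reached a −log10 q of 5. The excess in the knockout list came from the far end of the gene. There a control peak of 374 bases matched a knockout peak of 2273 bases, and a further knockout peak of 1205 bases (−log10 q 1.88) had no control counterpart. The peak behind the start site was narrower in the knockout list, at 1651 against 2152 bases. The record of SRFBP1 overlaps the whole of LOX, so these peaks cannot be assigned to either gene.

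LOXL1, which encodes an enzyme needed for elastic fibre upkeep (chromosome 15, 73926462 to 73952136), had 5 control peaks covering 20985 bases and 4 knockout peaks covering 12218. A control peak of 2678 bases in the gene body (−log10 q 1.69) had no counterpart. The strongest control peak, inside the record between 73938486 and 73943281, was 4796 bases wide with a −log10 q of 16.2, at or above 98.8% of its list. Its knockout partner was 3069 bases wide with a −log10 q of 9.40, at or above 87.8% of its own list. Behind the start site a control peak of 3098 bases was matched by a knockout peak of only 490 bases. The pileup (stacked fragments) was 12.7 for the control peak and 23.5 for the knockout peak, while fold over input was 3.25 and 3.07. The control peak began at 73928299 and the knockout peak ahead of it at 73928105, so these values are not for the same bases. A broad domain that begins at the end of the record was nearly equal, at 16309 and 15689 bases. At LOXL1 the local input background implied by the lists was 1.21 times the list-wide knockout to control ratio, and its part in the difference was not tested.

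LOXL2, which encodes an enzyme that crosslinks collagen IV of basement membranes (chromosome 8, 23296897 to 23404120), had the largest difference of the 10 genes in covered bases, in the largest window. As a share of the window, the differences at LOXL1 (58.8% to 34.2%) and LOXL3 (39.96% to 20.5%) were larger than that at LOXL2 (45.1% to 32.2%). The LOXL2 window carried 11 control peaks covering 52923 bases and 8 knockout peaks covering 37798. All 8 knockout peaks overlapped a control peak, and 3 control peaks had no knockout counterpart. Those 3 were weak, with −log10 q values of 1.45, 1.91 and 2.27, and covered 1073, 344 and 617 bases. Most of the deficit lay in matched peaks instead. A control peak of 4817 bases matched a knockout peak of 1537, and a control peak of 5813 bases matched one of 2668. A control peak of 4081 bases matched one of 505. That control peak was as weak as the unmatched ones, with a −log10 q of 1.94. It ended at 23387720 and its knockout partner began at 23387454, so they overlapped only at an edge. The widest peak inside the gene was almost identical, at 16760 control and 16565 knockout bases, and both lists started it at the same base, 23342417. Its −log10 q was 15.4 and 14.6, at or above 98.4% and 97.1% of the peaks of its list.

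LOXL3, which encodes a further amine oxidase of the family (chromosome 2, 74532258 to 74555702), had 5 control peaks covering 13365 bases and 5 knockout peaks covering 6855. The peak inside the gene behind its start site was 5012 bases wide in control and 3076 in knockout. A control domain of 13487 bases ahead of the start site overlapped 3 separate knockout peaks, of which 2 reached the LOXL3 window and measured 674 and 2955 bases. The window overlaps DOK1, M1AP, HTRA2 and AUP1, and with no flank the difference was 5823 control against 3386 knockout bases. LOXL4, a family member on chromosome 10 (98247690 to 98268194), carried a single domain in each list. It covered 9210 control and 8403 knockout bases, and the knockout domain lay wholly inside the control one. Its fold enrichment over input was 4.70 in control and 3.81 in knockout, so at a fold of at least 4 LOXL4 had 9210 control bases and 0 knockout bases and was called lower.

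**Figure D2:**
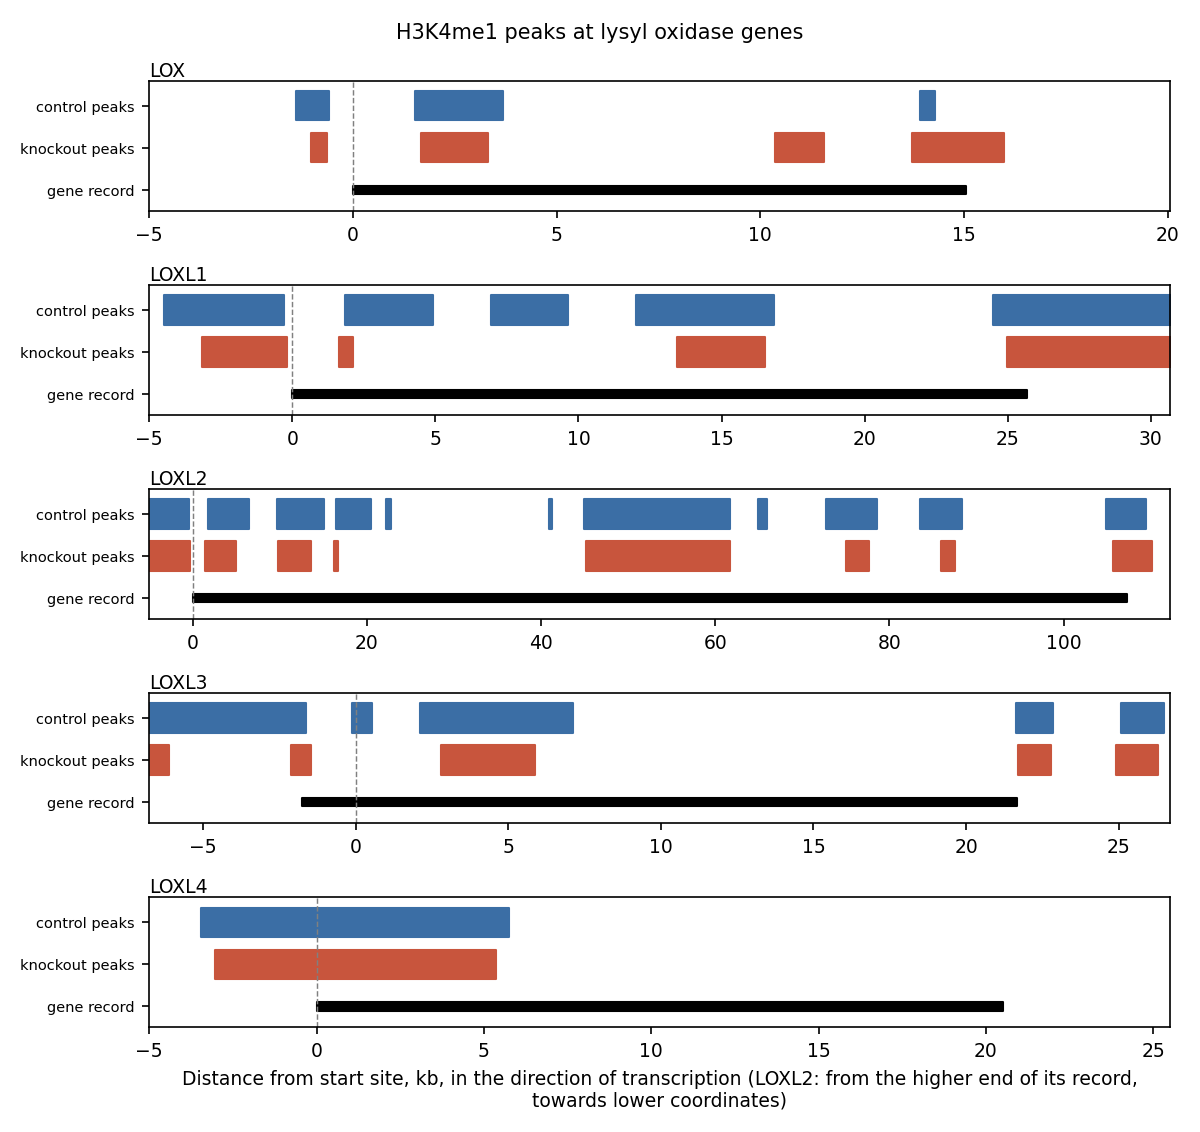
H3K4me1 peaks of the control list (upper bars) and knockout list (middle bars) at the 5 lysyl oxidase genes, by distance from the start site (for LOXL2 from the higher end of its record) in kilobases, with the gene record as a black line. The matched knockout bars at LOXL1, LOXL2 and LOXL3 are narrower than their control partners, though not always inside them, and the LOXL4 domain is nearly the same in both lists.

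SPARC, which encodes a collagen-binding glycoprotein also called osteonectin (chromosome 5, 151661096 to 151686915), was covered by 4 peaks in each list, 17978 bases in control and 13289 in knockout. Each of the 4 knockout peaks lay inside its control partner. Their widths, from the start site onward, were 4817, 7443, 3513 and 2205 bases in control and 3177, 6836, 2699 and 577 bases in knockout. The strongest lay inside the record, between 151669823 and 151677265 in control, with a −log10 q of 15.1 there and 17.1 in the knockout list. These were at or above 98.3% and 98.7% of their lists, so SPARC kept a top-ranked peak in both while its peaks were narrower in the knockout list. The implied local input background was 1.18 times the list-wide ratio, and its part in the difference was not tested.

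FN1, the gene of fibronectin (chromosome 2, 215360865 to 215436068), had 3 control peaks covering 9308 bases and 5 knockout peaks covering 10972. Its strongest peak lay inside the gene, 3755 bases wide in control and 3569 in knockout. The −log10 q of that peak was 7.65 in control and 15.6 in knockout, at or above 86.6% and 97.9% of the peaks of each list. The excess of covered bases came from outside the record. Ahead of the start site a control peak of 1414 bases matched a knockout peak of 4729 bases, and over the record alone FN1 had 7894 control and 7163 knockout bases. At a fold of at least 4 it had 3755 and 3569. The call of higher coverage at FN1 thus ended, with the sign turned, under both of those settings. Weak knockout peaks of 484 and 728 bases in the gene body had no control counterpart.

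TNC, which encodes tenascin-C (chromosome 9, 115019575 to 115118157), had 5 control peaks covering 16827 bases and 4 knockout peaks covering 17201. Each list had 1 peak in the gene body that the other lacked, of 1618 bases with a −log10 q of 3.30 in control and of 1001 bases with a −log10 q of 1.63 in knockout. The peaks nearest the start site were 3980 and 2908 bases wide in control, separated by a gap, and a single peak of 8608 bases in knockout. When the same merging distance was applied to both lists, TNC had 18245 control and 17201 knockout bases and would be called lower. At a −log10 q of at least 5 it had 8834 and 14416 bases and was higher.

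THBS1, which encodes thrombospondin-1, an activator of latent TGF-beta (chromosome 15, 39581079 to 39599466), had 3 peaks in each list covering 5720 and 6282 bases. The peak behind its start site began at the same base in both lists, 39582014, and was 3243 bases wide in control and 4786 in knockout, with −log10 q of 3.71 and 6.36. It was 1 of 4 matched peaks among all the genes here that were wider in the knockout list. No control peak at THBS1 reached a −log10 q of 5, and the knockout peaks that did covered 5594 bases. POSTN, which encodes periostin, a protein made largely by fibroblasts (chromosome 13, 37562585 to 37598768), had no peak in either list, which was also so for 3160 of all 19970 genes, POSTN included. The nearest peak ahead of its start site was 15761 bases away in control and 16128 in knockout. The windows of LOXL2, LOXL4, FN1 and THBS1 also overlap other records (R3HCC1, R3HCC1L, ATIC and FSIP1), and a peak there may belong to either gene.

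**Figure D3:**
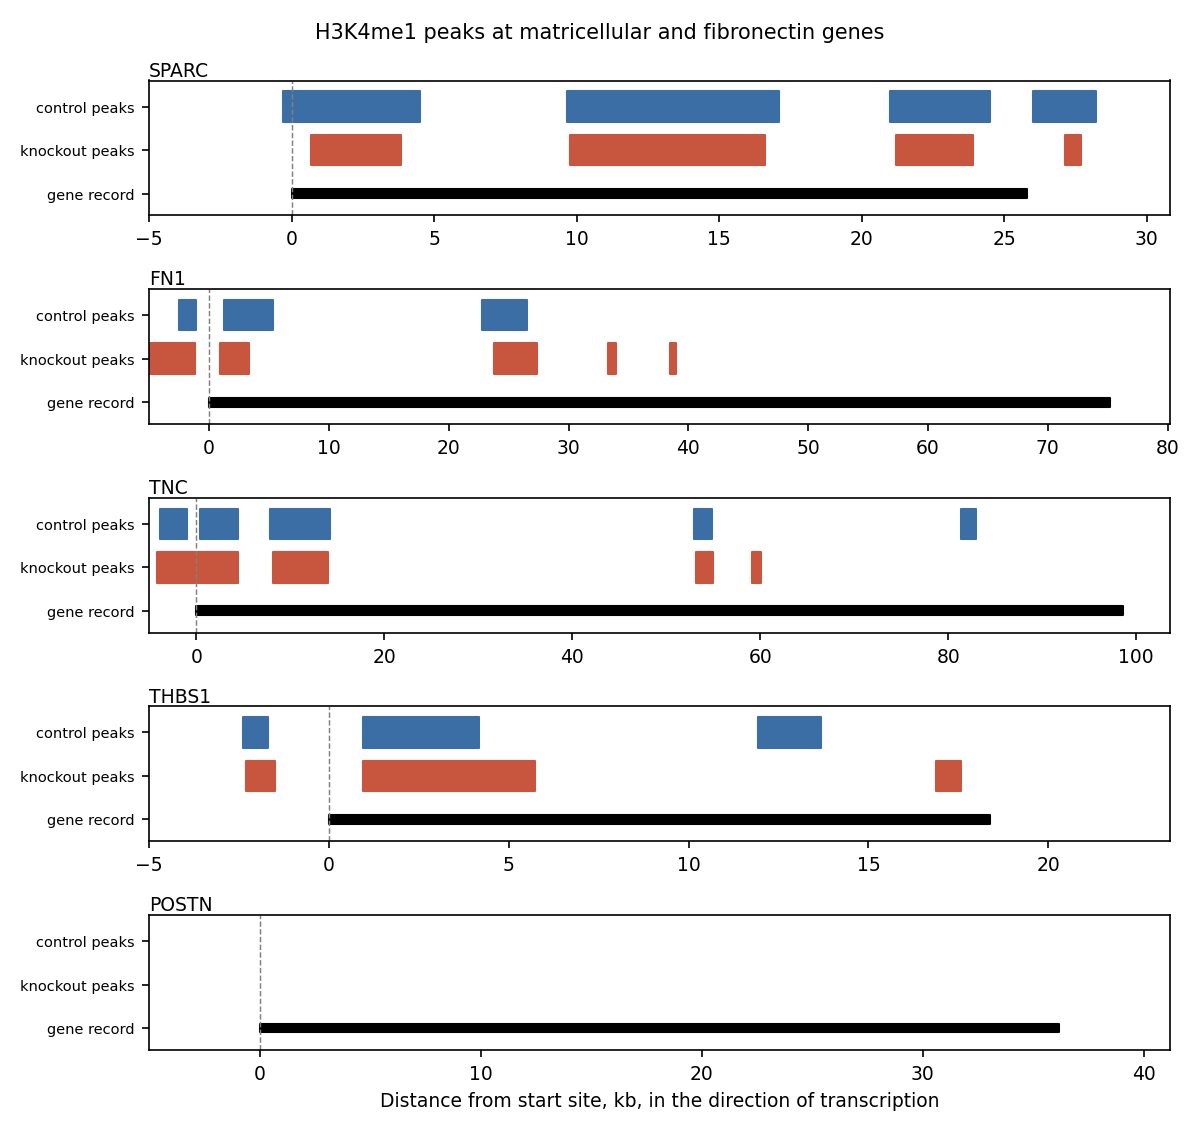
H3K4me1 peaks of the control list (upper bars) and knockout list (middle bars) at SPARC, FN1, TNC, THBS1 and POSTN, by distance from the start site in kilobases, with the gene record as a black line. The 4 SPARC knockout peaks lie inside the control peaks, TNC has 1 joined knockout peak over its start, and POSTN is empty.

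Peaks of these genes that could be matched were mostly narrower in the knockout list. Pairs were taken where 1 control peak and 1 knockout peak overlapped each other and no other peak. The knockout peak was the narrower in 26 of 30 such pairs, where 51.4% of the 50395 pairs of the whole lists were. Lysyl oxidase genes gave 18 of 19 pairs and the other genes 8 of 11. The median knockout to control width ratio was 0.836 at these genes and 0.988 over all pairs. The knockout peak lay wholly inside the control peak in 16 of 30 pairs, against 25.8% of all pairs.

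By the geometric mean width of the pair, 49.8% of all pairs under 1000 bases had the narrower peak in knockout, and 54.1% of those of 8000 bases or more. This mean treats both lists alike, so it does not show the background at peaks that are wide in control. The members' pairs were narrower in 1 of 3 below 1000 bases and in 25 of the other 27. With peaks reaching a −log10 q of 5 alone, the knockout peak was the narrower in 15 of 15 pairs, against 51.0% of all pairs. With the same merging in both lists it was so in 24 of 29, against 52.2%. Pairs of a gene are neighbours and not independent, and the 8 pairs of LOXL2 were all narrower, but without LOXL2 the count was still 18 of 22. The pileup was higher in knockout in 21 of the 30 pairs, as in 72.5% of all pairs, while fold over input was lower in 21 of 30, against 55.3%. Both counts include the pairs with a wider knockout peak, and the depth behind each list is unknown.

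**Figure D4:**
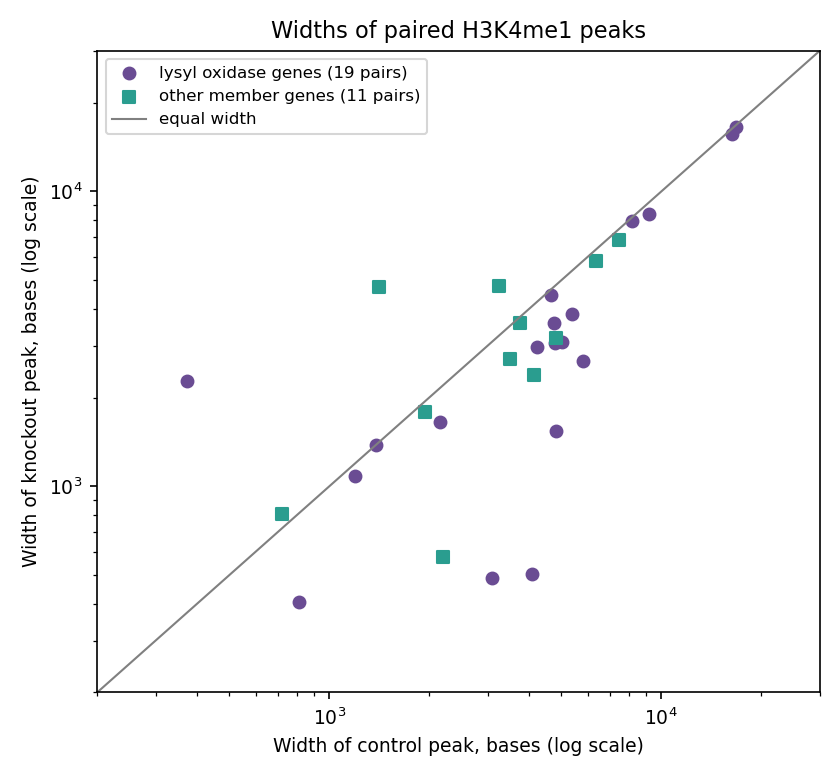
Widths of the 30 matched peak pairs, control on the horizontal and knockout on the vertical log axis, in bases, with circles for lysyl oxidase genes and squares for the other genes. The grey line marks equal width; 26 points lie below it and 4 above it, the latter at LOX, FN1 and THBS1.

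Peaks found in a single list were few and mostly weak. Of 40 control peaks at these genes 7 overlapped no knockout peak (17.5%, 95% exact binomial interval 7.34 to 32.8), against 28.2% of the whole control list. Of 38 knockout peaks 5 overlapped no control peak (13.2%, 4.41 to 28.1), against 21.3% of the whole list. Both intervals include the share of the whole list. They cover counting error only and treat neighbouring peaks of a gene as independent, which they are not, so they serve as description. The 5 knockout-only peaks, at LOX, FN1, TNC and THBS1, had −log10 q values of 1.51 to 1.88, all below the list's median of 3.77. The control-only peaks, at LOXL1, LOXL2, LOXL3, TNC and THBS1, ranged from 1.11 to 5.63. The strongest of them lay over the start site of LOXL3.

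Start sites were then compared. First-listed start sites were found for 9 of the 10 genes in the RefSeq promoter table (GRCh38.p14), LOXL2 being the one not matched. In both lists the start sites of LOX, LOXL1, FN1 and THBS1 lay in a gap, with no peak over the start and a peak within 2500 bases on either side. At FN1 the gap reached from 1089 bases ahead to 1231 behind in control and from 1192 ahead to 934 behind in knockout. At LOXL4 a peak covered the start in both lists. Across all 15811 genes with a start site, 35.4% of control and 26.6% of knockout start sites lay in such a gap, while 14.1% and 24.2% lay in a peak.

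Start sites of 3 genes differed in state between the lists. How often the start sites of all genes did so was not counted, so these 3 are only described. The shares of all start sites in a peak or in a gap also differed between the lists, as given above. The LOXL3 start (74553942) lay in a control-only peak of 641 bases (74553410 to 74554050, −log10 q 5.63), and the nearest knockout peak was 1343 bases from that peak. The SPARC start (151686915) lay near the edge of a control peak that ended at 151687224, whereas the knockout peak began 660 bases behind it. The TNC start (115118157) lay in a control gap from 980 bases ahead to 439 behind and inside the joined knockout peak. With the same merging in both lists the control peaks also joined over the TNC start, so this difference depended on the merging distance. LOXL3 has a further listed start inside the record (74549526), which lay in a peak in both lists, so the difference concerned the first-listed start alone. The 2 further listed starts of LOX lay in the same gap as the first in both lists.

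**Figure D5:**
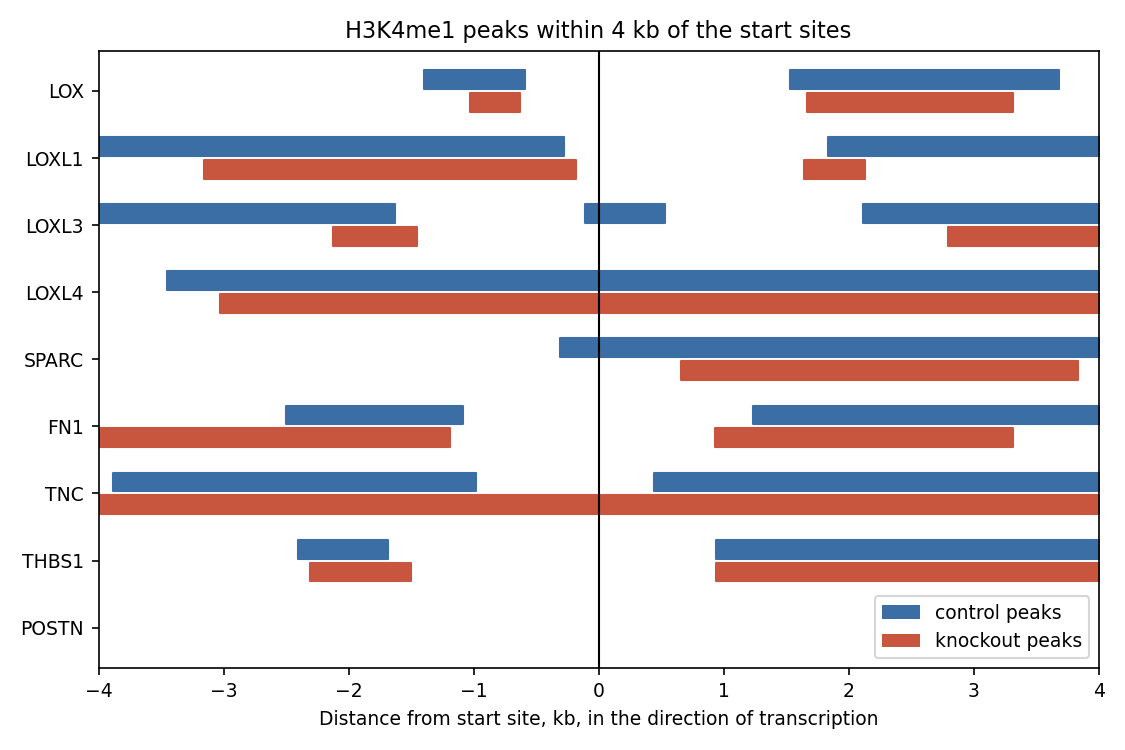
H3K4me1 peaks within 4000 bases of 9 start sites, control bars above knockout bars, drawn in the direction of transcription in kilobases. LOX, LOXL1, FN1 and THBS1 show a gap over the start in both lists, and LOXL3, SPARC and TNC differ there between lists.

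The bases ahead of the start are shown for 6 genes that span these states: FN1 for the gap, LOXL4 for a start inside a peak in both lists, LOXL3, SPARC and TNC for starts that differed, and POSTN for none. Each run is the 250 bases before the start, 5′ to 3′ on the gene's strand, from RefSeq (GRCh38.p14). Capitals mark matches, on either strand, to the exact letters given below for each motif, with overlapping matches run together. The motifs are the TATA box, the CCAAT box, the GC box, the AP-1 motif, the TEAD motif and the cyclic AMP response element (CRE). Variant forms were not marked.
FN1 (chr2:215436069-215436318, minus strand): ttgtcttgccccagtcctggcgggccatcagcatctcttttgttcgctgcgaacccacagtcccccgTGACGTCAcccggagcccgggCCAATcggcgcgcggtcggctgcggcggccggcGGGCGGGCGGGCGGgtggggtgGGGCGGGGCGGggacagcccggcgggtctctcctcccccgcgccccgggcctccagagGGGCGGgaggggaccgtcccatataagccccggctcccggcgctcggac
LOXL4 (chr10:98268195-98268444, minus strand): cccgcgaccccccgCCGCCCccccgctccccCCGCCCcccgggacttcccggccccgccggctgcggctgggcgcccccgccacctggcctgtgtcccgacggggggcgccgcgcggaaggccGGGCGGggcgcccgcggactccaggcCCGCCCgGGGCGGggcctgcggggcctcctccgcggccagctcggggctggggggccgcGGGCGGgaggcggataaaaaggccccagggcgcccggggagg
LOXL3 (chr2:74553943-74554192, minus strand): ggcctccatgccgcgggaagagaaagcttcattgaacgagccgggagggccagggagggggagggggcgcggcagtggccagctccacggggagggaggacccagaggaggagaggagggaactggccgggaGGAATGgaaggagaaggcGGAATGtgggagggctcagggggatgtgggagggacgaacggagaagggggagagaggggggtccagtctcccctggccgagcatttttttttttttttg
SPARC (chr5:151686916-151687165, minus strand): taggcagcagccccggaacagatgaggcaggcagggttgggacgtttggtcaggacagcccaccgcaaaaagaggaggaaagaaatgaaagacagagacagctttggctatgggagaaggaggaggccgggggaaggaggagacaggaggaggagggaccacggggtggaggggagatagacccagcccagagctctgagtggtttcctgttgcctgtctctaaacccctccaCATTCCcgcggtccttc
TNC (chr9:115118158-115118407, minus strand): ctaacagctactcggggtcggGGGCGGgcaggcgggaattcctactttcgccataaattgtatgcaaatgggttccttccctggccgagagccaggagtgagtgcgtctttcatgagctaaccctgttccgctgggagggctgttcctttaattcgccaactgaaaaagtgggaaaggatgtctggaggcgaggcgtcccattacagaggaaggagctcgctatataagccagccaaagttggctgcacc
POSTN (chr13:37598769-37599018, minus strand): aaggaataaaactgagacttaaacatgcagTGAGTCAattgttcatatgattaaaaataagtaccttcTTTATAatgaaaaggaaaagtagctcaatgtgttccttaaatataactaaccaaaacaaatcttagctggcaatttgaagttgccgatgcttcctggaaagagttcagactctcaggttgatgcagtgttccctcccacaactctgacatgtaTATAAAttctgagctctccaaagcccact

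The runs differ in base composition. GC content was 76.4% at FN1, 86.4% at LOXL4, 64.4% at LOXL3, 59.2% at SPARC, 54.8% at TNC and 36.4% at POSTN, against a median of 62.4% over 15811 promoters. POSTN, the gene without peaks, held 1 CpG, and 96.9% of promoters held as many or more. FN1 held 32 and LOXL4 37, where the median was 17. Among all genes, no peak lay within 2500 bases of the start at 58.7% of promoters with an observed to expected CpG ratio under 0.6, and at 15.4% of those with a higher ratio, in the control list. The gap state was found at 9.65% and 50.2%. In the knockout list these shares were 61.7% and 16.4% for no peak, and 6.71% and 38.1% for the gap state. LOX, FN1 and THBS1, which had the gap in both lists, had ratios of 0.692, 0.878 and 0.806, and LOXL1, with the gap too, had 0.469. LOXL4, whose start lay in a peak in both lists, had 0.794.

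The exact letters TATAAA, used here for the TATA box, were found ahead of POSTN alone of the 9 genes, and in 9.25% of all promoters. Variants of the box were not searched, so the other genes may hold one. The AP-1 motif TGANTCA was likewise found at POSTN alone, and in 5.05% of all. The CRE TGACGTCA was found at FN1, 183 bases before the start, and in 2.32% of all. The GC box GGGCGG was found at 5 of 9 genes and in 56.0% of all promoters, and the box CCAAT at 3 of 9 (LOX, FN1 and THBS1) and in 34.4%. The TEAD motif GGAATG was found at LOXL3, SPARC and THBS1, and in 10.1% of all. A match is a run of letters, not a bound site.

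Other genes of the pathway, from lists set with earlier results in view, differed in direction from list to list, where 20.2% of all genes were higher and 30.0% lower. Among 28 other collagen crosslinking and processing genes 11 were lower and 5 higher in the knockout list, with a median difference of -477.5 bases. PLOD2, a lysyl hydroxylase gene whose product prepares collagen for crosslinking, had 25721 control and 47494 knockout bases, and the prolyl hydroxylase gene P3H2 had 108032 and 73440. Among 31 other matricellular genes 14 were higher and 9 lower, with a median of 747 bases. HMCN1, which encodes hemicentin, had 21143 and 43861 bases, and the SPARC relative SPOCK1 had 12869 and 2675. Among 15 elastic fibre genes 6 were higher and 5 lower, with a median of 274 bases. LTBP1, which encodes a latent TGF-beta binding protein, had 29389 bases in control against 44958 in knockout, and its relative LTBP3 had 15249 against 8984.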

How the data were processed

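H3K4me1 was profiled in control and ARID1A knockout MDA-MB-231 cells, 2 immunoprecipitates and 2 inputs per genotype, from chromatin cut with micrococcal nuclease per the labels' protocols. The submitters' processing notes name MACS2 2.2.6, Bowtie2 2.3.5.1 and hg38, and settings were not among the sources used here. The protocol names an H3K4me3 antibody, whereas the titles and the antibody label say H3K4me1, which was used. The authors deposited 1 list per genotype, matched to it by the NC and KO names in the sample titles; how replicates were combined is not stated. Per the file headers, the deposited columns are position, pileup (a signal of stacked fragments), fold enrichment over input (a ratio), and the −log10 q, beside a p-value column that was not used. These are the authors' values and rank peaks within a list only.

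Coordinates are hg38, and genes and start sites came from RefSeq tables of GRCh38.p14, which share its chromosomes. Strand and starts were used, exons were not. Covered bases were counted in each gene record with 5000 bases either side, and peaks were shared when they overlapped by at least 1 base. Same merging means that peaks up to 1444 bases apart were joined and those shorter than 361 bases dropped in both lists. A percentile is the percent of a list's peaks at or below a value. Local input background was estimated as (pileup + 1) / fold − 1, taking the median over a gene's peaks, and its knockout to control ratio was divided by that of the whole lists (1.25). Computation used Python 3.11.15, pandas 2.3.3, NumPy 2.4.6 and SciPy 1.17.1, and the interval code was tested on simulated data. The members, lists and thresholds were chosen with earlier results of these data known, and the 2500-base start-site rule and the peak pairs, with their alternatives, after the peaks were seen. All 10 members are named, and from each related list the genes with the largest positive and negative difference. No p-value was computed.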

Additional observations from a re-analysis of the deposited data

How the results depend on the processing

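LOXL1, LOXL2, LOXL3 and SPARC had fewer covered bases in the knockout list under all 6 alternatives of threshold, window and merging, and were called lower in each setting tried but 1. With a difference of 1.5 times also required, 2 were lower (LOXL1 and LOXL3, background 15.5%) and 1 was higher (LOX, 9.88%). The number higher was 1 at a fold of at least 4 (TNC, background 14.5%), 1 with no flank (LOX, 14.9%), 1 at 2000 bases (LOX, 11.0%) and 4 with 50000 bases either side (LOX, FN1, TNC and POSTN, 26.2%). The number lower was 5 at that fold (with LOXL4, background 19.4%) and 6 with 50000 bases either side (with LOXL4 and THBS1, 46.0%). FN1 reversed to -186 bases at a fold of at least 4 and to -731 with no flank. Knockout peaks were narrower in 15 of 15 pairs at a −log10 q of at least 5 (background 51.0%). At a fold of at least 4 they were narrower in 9 of 10 (background 51.3%), fewer pairs being left at both cutoffs. Start sites in a gap fell to 1 in control and 2 in knockout at that q, and to 0 and 0 at that fold. Those in a knockout peak were 1 at that fold. The shares of all start sites at those cutoffs were not counted, so these counts are only described. Fewer peaks remained at those cutoffs, and for the other shifts the cause was not tested. The difference was -1531 bases at THBS1 with 50000 bases either side and -1044 at TNC with the same merging. LOX had no covered base in either list at that q or that fold. No paired analysis was possible because each genotype has 1 list with no values per replicate, and for the same reason no replicate could be left out. Depth is unknown, so a peak missing from a list may be one that was not detectable there.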
